A study of Bos taurus with 20 samples.

Results

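The genes described here are the ligands and receptors of the tumour necrosis factor (TNF) superfamily and the TRAF adaptors, in clonal populations of bovine mesenchymal stem/stromal cells (MSCs). They were chosen by symbol, as every gene named TNFSF or TNFRSF with a number, together with CD40, CD40LG, FAS, FASLG, TNF, LTA, LTB, LTBR, CD27, CD70, NGFR, EDA, EDAR and TRAF1 to TRAF6. This gave 47 of the 33063 named genes of the count table, of which 18 were ligands, 23 receptors and 6 TRAFs. RNA was sequenced from 10 adipogenic (A) clones and 10 non-adipogenic (N) clones, with 1 library per clone. Per the labels, A clones had stained strongly for lipid with Oil Red O after adipogenic differentiation and N clones had not stained, while the study's text names BODIPY as the stain by which the sequenced clones were chosen. The sequenced cells themselves were undifferentiated. From animals 17 and 20 came 1 clone of each kind, and from animals 22 and 23 came 4 of each kind.

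The animals were Holstein Friesian x Aberdeen Angus calves, and the MSCs came from visceral fat of the inguinal or perirenal region. All clones of both groups had been grown from single sorted cells on gelatine-coated plastic in medium with fetal bovine serum and basic fibroblast growth factor. After sorting, part of this was conditioned medium from MSC cultures of the same animal. The protocols name no engineered allele and no added TNF family ligand. Which TNF family ligands the conditioned medium held is not given. Each library is 1 clone grown from 1 cell, and clones of the same animal are separate cells of that animal, so the 20 clones sample 4 animals. Because every clone was expanded from 1 cell and then read as bulk RNA, fewer cells with a transcript and less of it per cell cannot be told apart.

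TNF superfamily ligands are mostly membrane-bound trimers that can be shed, and each binds one or a few receptors with cysteine-rich extracellular repeats. Receptors with a death domain recruit adaptors such as TRADD and FADD and can start apoptosis or necroptosis, and the others bind TRAF proteins, which lead to NF-kB and stress kinases. Decoy receptors bind ligand without passing on the full signal. In adipose tissue TNF is best known as an inflammatory cytokine that restrains the conversion of pre-adipocytes to adipocytes and lowers insulin sensitivity.

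Library totals on named genes ranged from 14615493 to 29185355 counts in A clones and from 14908802 to 43111345 in N clones. The MSC surface markers ITGB1, CD44, NT5E, THY1, ENG, PDGFRA and PDGFRB were all tested, 0 of the 7 had an adjusted p under 0.05, and their summed level was 3802 to 6278 CPM (counts scaled to the size of the library) in A clones and 2775 to 5578 CPM in N clones. Markers of the leukocytes in which many TNF superfamily genes are best known were low, and those of T and myeloid cells were higher in most A clones than in most N clones. The 7 T cell markers summed to 0.110 to 2.64 CPM in A clones (median 0.824) and 0 to 1.25 CPM in N clones (median 0.0570), with CD2 at 0 counts in all clones. The 8 myeloid markers summed to 0.805 to 7.67 CPM in A clones (median 4.01) and 0.146 to 7.90 CPM in N clones (median 0.456), with C1QA and C1QB at 0. Those of B cells summed to at most 2.16 CPM, with MS4A1 and CD79B at 0. None of these leukocyte markers passed the filter on low counts, so 0 of them could be tested. Of 7 endothelial markers, 3 were tested and 0 had an adjusted p under 0.05. The 7 summed to 5.11 to 23.9 CPM in A clones (median 8.82) and 1.12 to 41.1 CPM in N clones (median 3.28). PECAM1 had a log2 fold change of 2.49 (adjusted p = 0.0675), and of 2.91 (0.0314) without A clone 20-106. Its log2 fold change was 2.21 (0.200) without N clones 22-5 and 22-9, 1.13 (0.570) without animal 22 and 1.83 (0.158) without the animal block. For VWF and TEK the log2 fold change was 0.59 and -0.03 with all clones. N clones 22-5 and 22-9 stood apart in mesothelial markers (MSLN, UPK3B, KRT8, KRT18, KRT19, WT1, LRRN4 and BNC1), which summed to 9372 and 6710 CPM there and to at most 1128 CPM in any other clone. Of the 7 mesothelial markers tested, MSLN was lower in A clones (log2 fold change -1.97, adjusted p = 0.0393), with the same sign in all 4 animals, and the median over the 7 was -1.79. KRT8 and KRT19 had positive values, 0.72 and 1.16, and the other tested markers negative ones. Without N clones 22-5 and 22-9, MSLN had a log2 fold change of -0.91 (adjusted p = 0.393) and the median was -0.27. KRT8 alone passed the threshold there, with higher levels in A clones (adjusted p = 0.0458). Genes with their highest levels in N clones 22-5 and 22-9 are given with and without them below. Of 10 proliferation genes 7 (70%) were lower in A clones, with sums of 34.0 to 376 CPM in A clones against 128 to 637 CPM in N clones. Of 6 smooth muscle and pericyte genes tested 2 (33.3%) were higher in A clones, NOTCH3 and MYH11. Both shares stand beside 20.6% of all genes. Without N clones 22-5 and 22-9 the counts were 2 and 1, beside 14.2%. They were 2 and 3 without animal 22 (beside 11.5%), and 0 and 0 without animal 23 (beside 0.245%). The part of proliferation and smooth muscle genes in the differences below was not tested.

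Of the 47 genes, 24 passed the filter on low counts and could be tested, which were 5 ligands, 13 receptors and all 6 TRAFs. The other 23 were 13 ligands and 10 receptors, of which 5 had 0 counts in every clone (the ligands CD70 and CD40LG and the receptors CD27, EDAR and TNFRSF13B). A count of 0 allows up to 3 counts, which is between 0.0763 and 0.216 CPM depending on the library, and covers counting error only. Among 28 pairs of a ligand with a receptor it is known to bind, both genes were tested in 2 pairs (TNFSF4 with TNFRSF4, and TNFSF12 with TNFRSF12A), the receptor alone in 14, the ligand alone in 4 and neither in 8. In most pairs, then, the receptor passed the filter on low counts and the ligand did not, or neither did.

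Between A and N clones, 6 of the 24 tested genes had an adjusted p under 0.05 (edgeR quasi-likelihood F test with the animal as a block, p-values adjusted by the Benjamini-Hochberg method over all 12900 genes tested). This is 25% of them, beside 20.6% of all genes tested, so the share was near the background. In A clones TNFSF4, TNFRSF1B and TNFRSF12A were higher, against a background of 10.3% of genes called in that direction, and TNFRSF1A, TNFRSF10D and TRAF4 were lower, against a background of 10.3% as well. TNFSF4, TNFRSF1B and TRAF4 differed by at least 2-fold, beside 5.76% of all genes. Without the 8 clones of animal 23, 0 of 25 tested genes passed, 5 had an unadjusted p under 0.05, and 0.245% of all genes passed. Without the 8 clones of animal 22, 4 passed, beside 11.5% of all genes. These were TNFRSF12A, TNFRSF1A, TRAF4 and NGFR, and TNFSF4, TNFRSF1B and TNFRSF10D lost their calls. For 0 of the 24 genes did the A clones lie wholly apart from the N clones in CPM, beside 0.326% of all genes. The median log2 fold change was 0.03 over the 24 genes and -0.01 over all genes tested, and the median size regardless of sign was 0.52 and 0.25. Levels are given below as CPM with library sizes scaled by TMM (trimmed mean of M values) factors, as the lowest, median and highest of the 10 clones of a group. They are compared between clones for 1 gene at a time and not between genes, since transcript lengths were not used.

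**Figure D1:**
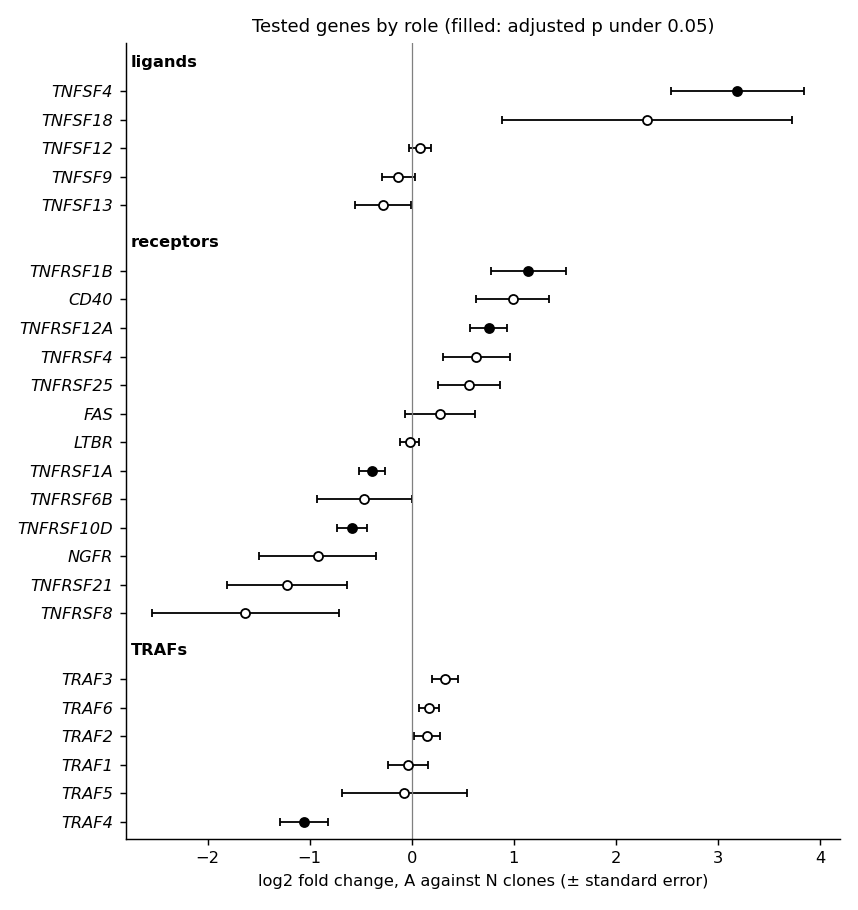
Log2 fold change of A against N clones (horizontal axis, bars are 1 standard error) for the 24 tested genes, grouped by role, with filled points at an adjusted p under 0.05. TNFSF4 has the largest value at 3.19, and the 6 filled points lie on both sides of 0.

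Among the ligands, TNFSF4, which encodes the OX40 ligand, a co-stimulatory molecule best known on antigen-presenting cells, was higher in A clones. It ranged from 0.294 to 12.9 CPM in A clones (median 1.64) and from 0 to 0.706 CPM in N clones (median 0.265). These levels rest on 6 to 198 counts per A clone and 0 to 13 counts per N clone. The levels of 9 of the 10 A clones exceeded those of all N clones, and A clone 20-106 was the exception. A clones 23-14 and 23-68 were the highest, at 12.9 and 8.92 CPM. The log2 fold change was 3.19 (SE, the standard error, 0.653, adjusted p = 0.00432). Within animals 17, 20, 22 and 23 it was 1.10, -0.04, 2.83 and 3.49. Myeloid markers, given above, also had the higher median in A clones. They summed to 1.37 and 3.02 CPM in A clones 23-14 and 23-68, and to 4.55 CPM in A clone 20-106. N clone 20-15 had the highest sum, 7.90 CPM, and 0.306 CPM of TNFSF4. C1QA and C1QB had 0 counts in all clones. CSF1R, a receptor of the macrophage lineage, was named after its values were seen. It was at 0.475 to 2.38 CPM in A clones (7 to 35 counts) and 0 to 0.254 CPM in N clones (0 to 10 counts), without overlap. CSF1R was not tested. The share of 0.326% without overlap covers only genes that passed the filter, which CSF1R did not, so it is no background for CSF1R. PTPRC, the gene of the leukocyte antigen CD45, had 0 counts in 9 A and 9 N clones. The part of myeloid genes in the level of TNFSF4 was not tested. In the fit without animal 22, TNFSF4 had a log2 fold change of 3.28 (adjusted p = 0.0618), and without animal 17 it was under the filter. TNFSF4 is on the study's list of CD genes, which was drawn up from these same clones, so its direction is not independent of that list.

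TNFSF18, the GITR ligand, varied more between clones than nearly any other gene. Its level ranged from 0.392 to 85.7 CPM in A clones (median 35.8) and from 0 to 69.9 CPM in N clones (median 6.77), and the groups overlapped through most of their range. The fold change was 2.30 on the log2 scale with an SE of 1.42 (adjusted p = 0.25). Its level in animals 22 and 23 is described further below.

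The other ligands tested showed smaller differences. TNFSF9, which binds the co-stimulatory receptor TNFRSF9, was at 13.4 to 31.1 CPM in A clones and 13.7 to 33.7 CPM in N clones, with a log2 fold change of -0.13 (SE 0.160). TNFSF12, which encodes TWEAK, was at 20.5 to 33.9 CPM in A clones and 16.6 to 35.4 CPM in N clones, with a log2 fold change of 0.08 (SE 0.104). TNFSF13, which encodes APRIL, a B cell survival factor, was at 1.75 to 5.72 and 2.14 to 9.25 CPM, with a log2 fold change of -0.28 (SE 0.276). The groups overlapped in all 3 of these ligands.

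TNF itself, the founding ligand of the family, was almost undetected. It had 0 counts in all 10 N clones and in 5 A clones, and 1 to 5 counts in the other A clones, with the most in A clone 23-14. The remaining ligands below the filter are given as counts. LTB, a subunit of the lymphotoxin that binds LTBR, had 1 to 19 counts per A clone and 1 to 40 per N clone. TNFSF13B, which encodes the B cell factor BAFF, had 0 to 20 and 0 to 23 counts, and TNFSF10, which encodes TRAIL, had 0 to 6 and 0 to 15. EDA, which encodes ectodysplasin, had 0 to 25 counts per A clone and 0 to 60 per N clone. FASLG, LTA, TNFSF8, TNFSF11 (RANKL), TNFSF14 (LIGHT) and TNFSF15 had at most 6 counts in any clone.

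Both TNF receptors differed between A and N clones, in opposite directions. TNFRSF1A, which carries a death domain and is expressed by most cell types, ranged from 69.1 to 124.6 CPM in A clones (median 90.6) and from 77.5 to 165 CPM in N clones (median 124.2). The groups overlapped, with 3 A clones below every N clone and 5 N clones above every A clone. Its log2 fold change was -0.39 (SE 0.130, adjusted p = 0.0428), with the same sign in all 4 animals. This call was close to the threshold. It was kept without N clone 22-17, 22-18 or 23-23 or A clone 22-11, 22-121 or 23-108, and leaving out any other single clone moved the adjusted p to between 0.0509 and 0.0774, with log2 fold changes between -0.34 and -0.41. Without N clones 22-5 and 22-9 it was 0.103.

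TNFRSF1B, which lacks a death domain and binds TRAF2, was higher in A clones. It ranged from 14.7 to 85.0 CPM in A clones (median 40.5) and from 2.86 to 30.7 CPM in N clones (median 18.6). All A clones but 23-68 and 23-108 exceeded the highest N clone. N clone 22-17 was lowest of all at 2.86 CPM. The log2 fold change was 1.14 (SE 0.364, adjusted p = 0.0350), with the same sign in all 4 animals, from 0.57 in animal 17 to 1.83 in animal 22. The adjusted p was 0.0864 without A clone 23-14 and 0.0552 without A clone 22-27, and it was 0.0518, 0.0570, 0.0561 and 0.0502 without N clones 22-9, 23-10, 23-22 and 23-23. Without N clones 22-5 and 22-9 together it was 0.0490, and without animal 22 it was 0.166. TNFRSF1B is also on the study's CD list. Its span overlaps that of TNFRSF8 in the RefSeq annotation, so reads in the shared part are uncertain.

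TNFRSF12A, which encodes Fn14, the receptor of TWEAK and a gene often induced by growth factors, was higher in A clones. It ranged from 189 to 496 CPM in A clones (median 262) and from 62.2 to 244 CPM in N clones (median 189.7). Levels in 6 A clones exceeded the highest N clone and levels in 5 N clones were under the lowest A clone, with N clones 17-23 and 20-15 lowest. The difference was 0.75 on the log2 scale (SE 0.181, adjusted p = 0.00963), with the same sign in all 4 animals, and every fit without 1 clone kept its adjusted p at or under 0.0214. TNFSF12, its ligand, had a log2 fold change of 0.08, so the receptor and not the ligand passed the test in this pair. The annotated span of TNFRSF12A overlaps that of CLDN6, which had 1 to 328 counts per clone against 1145 to 8180 for TNFRSF12A.

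TNFRSF10D, in human a TRAIL receptor with a truncated death domain, was lower in A clones. It ranged from 95.4 to 182 CPM in A clones (median 123.6) and from 112 to 283 CPM in N clones (median 191). Of the N clones 6 lay above every A clone. The log2 fold change was -0.59 (SE 0.148, adjusted p = 0.0121), with the same sign in all 4 animals, and the adjusted p of every fit without 1 clone was at most 0.0267. N clones 22-9 and 22-5 were its highest clones, at 283 and 254 CPM, and without both the log2 fold change was -0.48 (adjusted p = 0.0444). Without animal 22 it was -0.48 as well (adjusted p = 0.118). TNFSF10, the TRAIL ligand, had at most 15 counts in any clone.

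**Figure D2:**
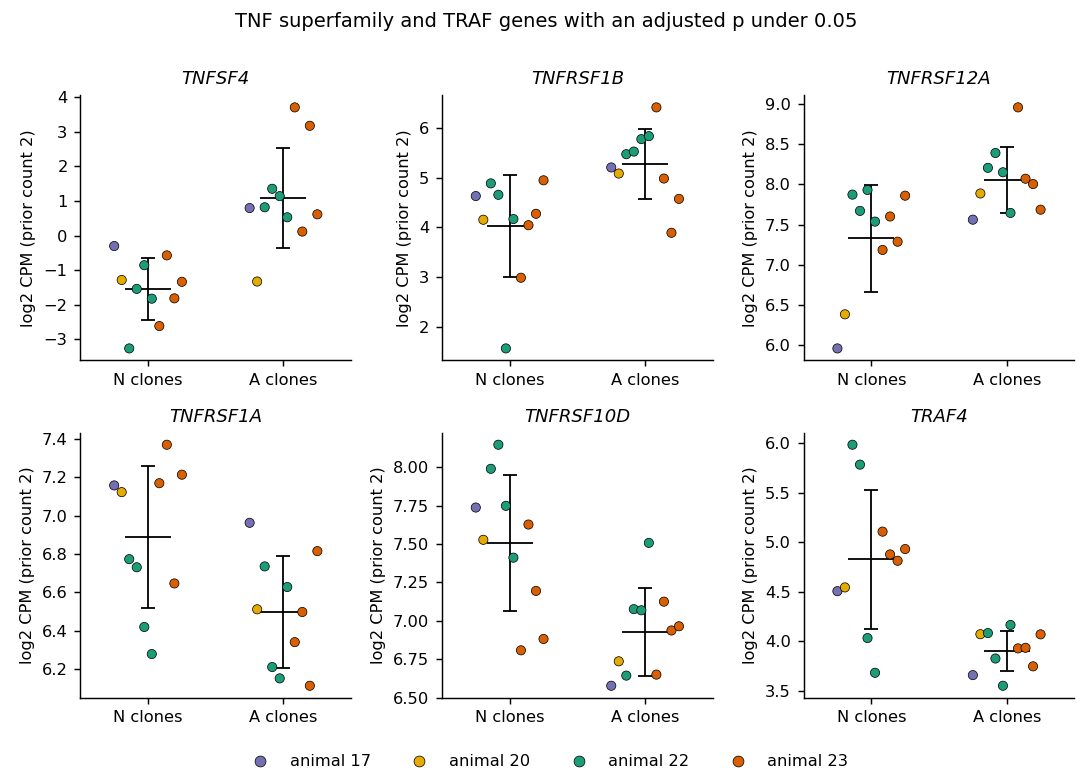
Level per clone as log2 CPM (vertical axis, prior count 2) of the 6 genes with an adjusted p under 0.05, with N clones on the left and A clones on the right of each panel, coloured by animal. Bars give the mean and SD of the 10 clones of a group, and every panel shows some overlap of the groups.

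The other receptors tested did not pass the threshold. CD40, which drives B cell and macrophage activation when it binds CD40LG, was at 0.608 to 7.20 CPM in A clones (median 2.04) and 0.407 to 2.77 CPM in N clones (median 0.897), with 10 to 147 counts per A clone and 11 to 57 per N clone. This gave a log2 fold change of 0.99 (SE 0.359, adjusted p = 0.0586), with values within animals that ran from -0.79 in animal 17 to 2.60 in animal 20. It passed the threshold without N clone 17-23 (adjusted p = 0.0317), N clone 23-74 (0.0364), A clone 17-57 (0.0318) or A clone 22-121 (0.0403). CD40 is on the study's CD list, and its ligand had 0 counts throughout.

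TNFRSF21, which encodes the death receptor DR6, spread widely among N clones. It ranged from 24.1 to 115 CPM in A clones (median 72.0) and from 8.94 to 567 CPM in N clones (median 113.9), and 4 N clones lay above every A clone while N clone 20-15 lay below them. Its log2 fold change was -1.22 (SE 0.592, adjusted p = 0.146). In animal 20 the A clone was higher by 3.67 on the log2 scale, and in the other animals the A clones had lower values, by -0.63, -1.65 and -0.83 in animals 17, 22 and 23. The adjusted p was 0.0383 without N clone 20-15 and 0.0384 without A clone 20-106. Without N clones 22-5 and 22-9, its highest clones, the log2 fold change was -0.25 (adjusted p = 0.750). TNFRSF21 is on the study's CD list as well.

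FAS, the receptor of FASLG and a classic inducer of apoptosis, was at 19.4 to 85.6 CPM in A clones (median 42.5) and 15.7 to 105 CPM in N clones (median 26.2). N clone 22-17 held the highest level of all, 105 CPM, while the next N clone had 40.9 CPM. The difference was 0.28 on the log2 scale (SE 0.345, adjusted p = 0.593), and it had opposite signs in different animals, at -0.48 and -0.19 in animals 17 and 20 and 0.12 and 0.96 in animals 22 and 23. FASLG had at most 2 counts in any clone.

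TNFRSF6B, in human a soluble decoy of FASLG and LIGHT, was at 2.69 to 162 CPM in A clones (median 15.9) and 7.62 to 57.8 CPM in N clones (median 19.0). A clone 17-57 alone held 162 CPM, and the next A clone 23.1 CPM. The log2 fold change was -0.47 (SE 0.465, adjusted p = 0.493). Within animals 17, 20, 22 and 23 it was 3.24, -3.35, -1.01 and 0.17. The highest N clones were 22-9 and 22-5, and without them it was -0.12 (adjusted p = 0.885).

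NGFR, the p75 neurotrophin receptor, which carries a death domain and is also used as a surface marker of MSCs, was at 3.53 to 51.1 CPM in A clones (median 25.9) and 12.6 to 151 CPM in N clones (median 43.2). In 4 N clones it exceeded the highest A clone, and in 2 A clones it was under the lowest N clone, for a log2 fold change of -0.92 (SE 0.575, adjusted p = 0.257). It passed the threshold without animal 22, with a log2 fold change of -2.17 (adjusted p = 0.0300), and was 0.14 (0.909) without animal 23.

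LTBR, the lymphotoxin beta receptor, was among the steadiest of these genes, at 64.7 to 96.1 CPM in A clones and 63.8 to 100.1 CPM in N clones, with a log2 fold change of -0.02 (SE 0.0951). TNFRSF25, the death receptor DR3, was at 2.34 to 10.1 and 1.37 to 8.51 CPM, with a log2 fold change of 0.56 (SE 0.303, adjusted p = 0.187). TNFRSF4, the receptor OX40, had 5 to 48 counts per clone and a log2 fold change of 0.63 (SE 0.327, adjusted p = 0.172), so of OX40 and its ligand only TNFSF4 passed the test. The adjusted p of TNFRSF4 was 0.0205 without N clone 20-15 and 0.0204 without A clone 20-106. TNFRSF8, which encodes CD30, had 1 to 21 counts per A clone and 0 to 164 per N clone, and a log2 fold change of -1.63 (SE 0.918, adjusted p = 0.210). Its median was the higher in A clones, at 0.628 against 0.325 CPM, and within animals 17, 20, 22 and 23 the differences were 1.39, 0.56, 0.12 and -1.15. The negative value rested on a few N clones. N clone 23-74 was highest at 7.96 CPM, and the log2 fold change was -0.72 without it and -0.44 without N clones 22-5 and 22-9 (adjusted p = 0.559 and 0.842).

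Receptors below the filter are given as counts. TNFRSF9 had 0 counts in all 10 N clones and in 5 A clones, and up to 14 counts in A clone 20-106. TNFRSF11A, which encodes RANK, the receptor of RANKL in osteoclast formation, had 0 to 24 counts per A clone and 0 to 3 per N clone, with the most in A clone 23-108. TNFRSF11B, which encodes the soluble RANKL decoy osteoprotegerin, had 0 to 43 counts per A clone and 0 to 98 per N clone, with the most in N clone 23-74. TNFRSF13C, a BAFF receptor, had at most 8 counts per A clone and 11 per N clone. TNFRSF19, a receptor known from Wnt-responsive progenitors, had 0 to 21 counts per A clone and 0 to 64 per N clone. TNFRSF18, the receptor of TNFSF18, had 1 count in A clone 22-27 and 0 in all others, and TNFRSF17 had at most 3 counts.

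Among the TRAF adaptors, TRAF4, which is unusual among TRAFs for its part in embryonic and epithelial development, was lower in A clones. It ranged from 11.6 to 17.8 CPM in A clones (median 15.1) and from 12.7 to 63.2 CPM in N clones (median 28.6). Of the N clones 8 lay above every A clone, and N clones 22-17 and 22-18 did not. A clones thus kept within a narrow range while N clones spread. The log2 fold change was -1.05 (SE 0.238, adjusted p = 0.00700), with the same sign in all 4 animals. Without N clones 22-5 and 22-9, its highest clones, it was -0.62 (adjusted p = 0.0175), which is no longer a 2-fold change, and every fit without 1 clone kept the adjusted p at or under 0.0155.

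The 5 other TRAFs did not pass the threshold. TRAF3, which holds back noncanonical NF-kB signalling, was at 32.8 to 62.9 CPM in A clones and 25.0 to 59.5 CPM in N clones, with a log2 fold change of 0.33 (SE 0.128, adjusted p = 0.0780). It passed the threshold without N clone 22-5 (adjusted p = 0.0373) or A clone 22-121 (0.0495). TRAF6, which also serves Toll-like and interleukin-1 receptors, was at 19.6 to 33.3 CPM in A clones (median 22.7) and 13.7 to 25.2 CPM in N clones (median 23.2), with a log2 fold change of 0.17 (SE 0.0971, adjusted p = 0.208). N clone 20-15 was lowest at 13.7 CPM, and the next N clone had 20.0 CPM. TRAF2, the main TRAF of TNF receptor signalling, had a log2 fold change of 0.15 (SE 0.126), and TRAF1, itself an NF-kB target gene, one of -0.04 (SE 0.194). TRAF5 had a log2 fold change of -0.07 (SE 0.612) and spread from 0.118 CPM in N clone 23-10 to 23.4 CPM in N clone 22-9. N clone 22-5 had 15.6 CPM, and without both the log2 fold change was 0.89 (adjusted p = 0.285).

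The genes differed greatly in the variation between clones that was left after condition and animal were fitted as separate terms. This variation includes any difference between animals in the change between A and N clones. It is therefore not the spread within a single animal and condition. The SD of log2 CPM that remained after condition and animal was 2.97 for TNFSF18, higher than in 99.8% of all genes tested. It was 1.78 for TNFRSF8, 1.56 for TRAF5, 1.34 for TNFRSF21 and 1.27 for NGFR. At the other end it was 0.208 for TRAF6, 0.212 for LTBR and 0.231 for TNFSF12, which placed these genes at the 18.1, 19.3 and 24.7 percentiles of all genes tested.

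N clones 22-5 and 22-9, with their high mesothelial markers, held the highest levels of several of these genes. TNFRSF21 was at 468 and 567 CPM in these clones and at most 257 CPM in any other. TRAF4 was at 63.2 and 55.0 CPM, with at most 34.3 CPM elsewhere. TNFRSF19 had 33 and 64 counts there and at most 21 in any other clone, and EDA had 40 and 60 counts there and at most 25 elsewhere. These clones came from the same animal and condition. Their proliferation genes also had high sums, 637 and 592 CPM, as in N clone 23-74 with 608 CPM. Their MSC markers had the lowest sums of all clones, 2775 and 3088 CPM. The part of mesothelial, proliferation or MSC genes in these levels was not tested. TNFSF18, by contrast, had 1 count in clone 22-5 and 420 in clone 22-9.

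**Figure D3:**
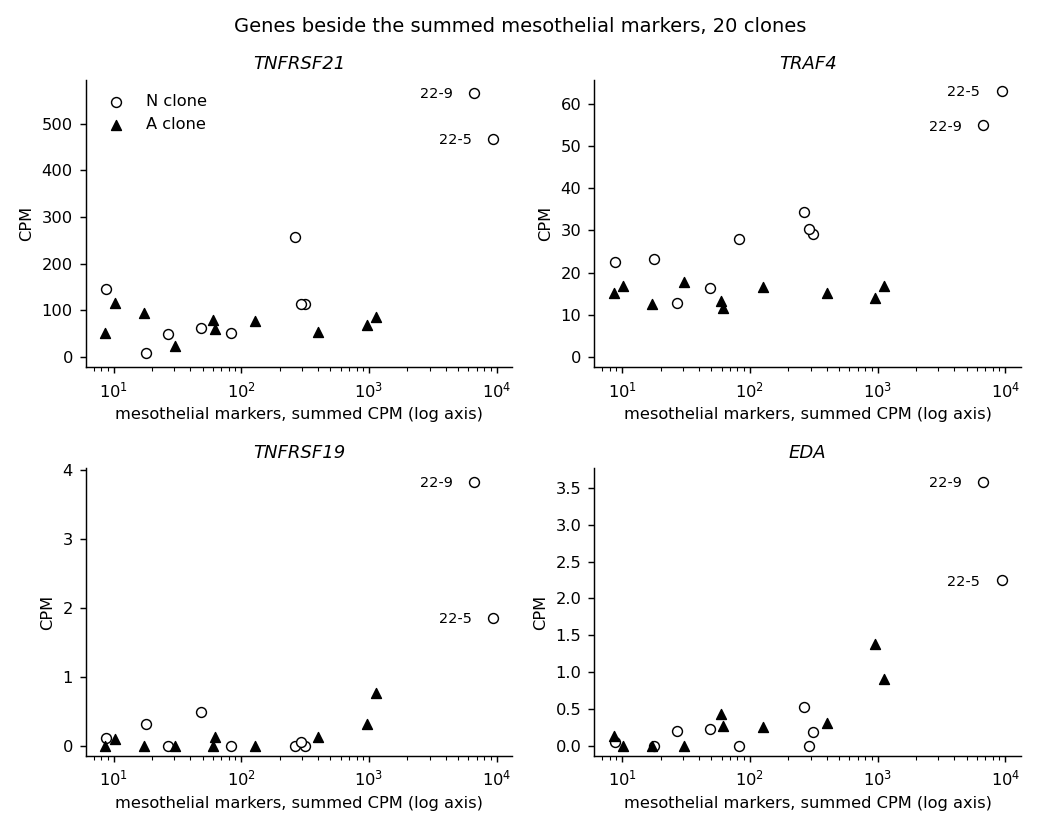
CPM of TNFRSF21, TRAF4, TNFRSF19 and EDA (vertical axes) against the summed CPM of 8 mesothelial markers (horizontal log axis) in the 20 clones, N clones as open circles and A clones as triangles. N clones 22-5 and 22-9 stand to the far right and at the top of each panel.

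A difference between animals could be set against the spread between clones in animals 22 and 23 only, with 16 clones. Between these animals 0 of 25 tested genes had an adjusted p under 0.05 in edgeR, beside 0.108% of all genes, and 4 (16%) had an unadjusted p under 0.05, beside 12.3% of all genes. DESeq2 called 1, TNFRSF19, a gene that did not pass the filter of the edgeR fit. The difference between A and N clones was then compared between the animals by an interaction term. There 0 of 27 genes passed in edgeR, beside 0.0288%, and 4 (14.8%) had an unadjusted p under 0.05, beside 9.17% of all genes, while DESeq2 called 2, TNFSF18 and NGFR. Both are described here after their values were seen.

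In animal 23, TNFSF18 had 13, 0, 6 and 1 counts in the N clones and 1144, 521, 776 and 83 counts in the A clones, so that the groups did not overlap. In animal 22 it had 1, 420, 1562 and 1688 counts in the N clones and 810, 808, 580 and 551 counts in the A clones, which overlapped. Animal 17 had 235 counts in its N clone and 1261 in its A clone, and animal 20 had 367 in its N clone and 8 in its A clone. The interaction, animal 23 minus animal 22, was 7.01 on the log2 scale (SE 1.77, unadjusted p = 0.00137, adjusted p = 0.342 in edgeR). In DESeq2 the same value had an adjusted p of 0.0164. The share of all genes without overlap within animal 23 was not counted, so no background stands beside the separation of TNFSF18 there.

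NGFR went the other way. In animal 23 its levels were 151, 110.2, 64.6 and 36.2 CPM in the N clones and 27.9, 26.8, 19.0 and 3.53 CPM in the A clones, with every A clone below every N clone. In animal 22 they were 22.5, 20.7, 15.7 and 12.6 CPM in the N clones and 51.1, 45.8, 34.6 and 14.9 CPM in the A clones, and 3 of those A clones exceeded the highest of those N clones. The interaction was -3.25 on the log2 scale (SE 0.795, unadjusted p = 0.00109, adjusted p = 0.342 in edgeR), and its adjusted p in DESeq2 was 0.00646. The N clone was the higher in animals 17 and 20, at 78.2 against 9.04 CPM and 50.1 against 25.0 CPM. For the separation of NGFR in animal 23, too, no share over all genes was counted.

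**Figure D4:**
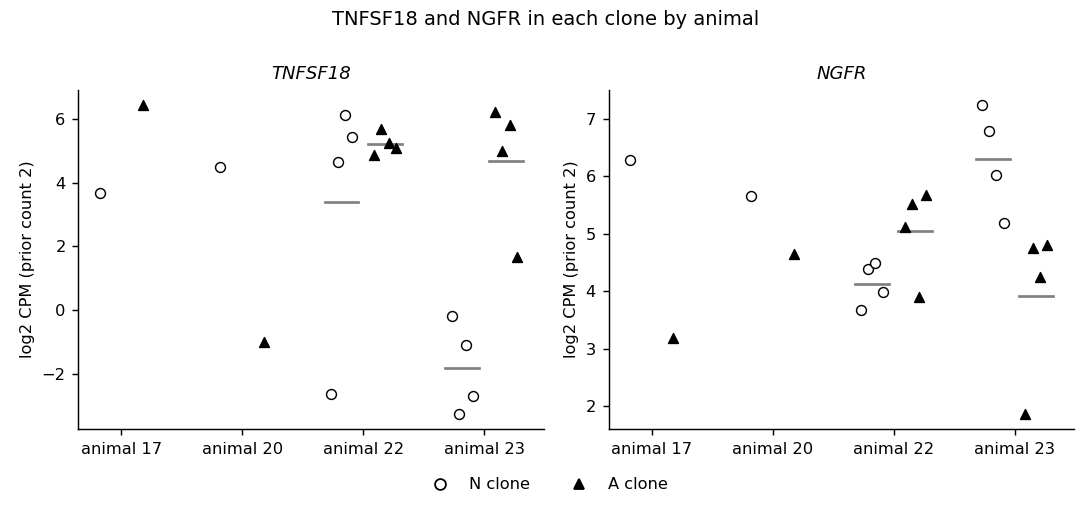
Level per clone as log2 CPM (vertical axis, prior count 2) of TNFSF18 and NGFR in the 4 animals, N clones as open circles and A clones as triangles, with grey lines at the means of 4 clones. In animal 23 all A clones lie above the N clones for TNFSF18 and below them for NGFR, and in animal 22 the groups overlap. Separation within an animal was not counted over all genes.

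Other genes of the pathway were read from lists of NF-kB components, receptor complex proteins, death effectors, shedding enzymes and target genes. Outside the 47 genes, 71 listed genes were tested and 18 had an adjusted p under 0.05, 13 with higher and 5 with lower levels in the A clones. This is 25.4%, beside 20.6% of all genes, with 10.3% of all genes called in each direction. Of the 71 genes, 8 were called and differed by at least 2-fold, beside 5.76% of all genes. The lists were read by counts and medians, without a test of a list as a whole.

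Of 9 tested genes for NF-kB subunits and inhibitors only BCL3, an atypical nuclear inhibitor family member, passed, at 2.56 to 16.8 CPM in A clones and 7.34 to 31.1 CPM in N clones (log2 fold change -0.96, SE 0.230, adjusted p = 0.00969). Of 12 kinase genes only IKBKE passed, with a log2 fold change of -0.60 (SE 0.204, adjusted p = 0.0445). These shares are 11.1% and 8.33%, beside 20.6% of all genes, and with so few genes nothing is read from them. The median log2 fold change was -0.03 for the subunits and -0.08 for the kinases. Among the receptors listed as having a death domain, 1 of 5 tested passed (20%), TNFRSF1A. Among decoy receptors 1 of 2 did (50%), TNFRSF10D, both beside 20.6% of all genes.

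Of 19 tested genes of the receptor complex, 4 were higher and 2 lower in A clones. Together this is 31.6%, beside 20.6% of all genes. TNFAIP3, which encodes A20, a ubiquitin-editing enzyme that shuts off TNF receptor signalling, had the smallest adjusted p. It ranged from 3.47 to 73.4 CPM in A clones (median 27.3) and from 1.79 to 10.6 CPM in N clones (median 5.05), and 9 of 10 A clones exceeded the highest N clone. Its log2 fold change was 2.68 (SE 0.314, adjusted p = 0.000169), higher in all 4 animals. TNIP1, which encodes a partner of A20, had a log2 fold change of 0.85 (adjusted p = 0.0106), OTULIN, a deubiquitinase of linear chains, 0.52 (0.0146), and CYLD, another deubiquitinase, 0.37 (0.0257). TRAF7 had a log2 fold change of -0.42 (adjusted p = 0.00491) and RIPK1, the kinase that decides between survival and death at TNF receptors, one of -0.19 (0.0304). CYLD and RIPK1 were named after their values were seen.

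Of 10 tested cell death effectors, MLKL, which carries out necroptosis, was the only one to pass (10%, beside 20.6% of all genes). It was at 21.7 to 72.0 CPM in A clones and 24.2 to 50.6 CPM in N clones, with 8 A clones above every N clone and 1 below, and had a log2 fold change of 0.65 (SE 0.126, adjusted p = 0.00311). Of 8 genes for ligand shedding and processing, 4 were higher in A clones and 0 lower. This is 50%, beside 20.6% of all genes. Of the 8, 3 (37.5%) passed without N clones 22-5 and 22-9 (beside 14.2%). The count was also 3 without A clone 20-106 (beside 18.9%) or without animal 22 (beside 11.5%). Without animal 23 it was 0, beside 0.245%. SPPL2B, an intramembrane protease that cleaves the stub of TNF, had a log2 fold change of 0.44 (adjusted p = 0.00313). RHBDF2, a rhomboid partner that the TNF-shedding protease ADAM17 needs, had 1.36 (0.00677), with 37.9 to 143 CPM in A clones and 16.0 to 62.1 CPM in N clones. TIMP3, which inhibits ADAM17, had 1.92 (0.0289), and FURIN, which processes proproteins including ADAM17, had 0.69 (0.0467). RHBDF2 and TIMP3 have opposite roles in shedding, and both were higher in A clones.

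NF-kB target genes had the largest median of these pathway lists, 0.85 on the log2 scale over 19 tested, with 5 higher and 1 lower in A clones. This is 31.6%, beside 20.6% of all genes. A clone 20-106 stood apart in this list. It was the highest A clone for 13 of the 22 listed genes, with 34.1 CPM of IL6 against 2.72 CPM in the next A clone, and 655 CPM of CXCL8 against 31.3 CPM. It was also the lowest A clone for all 10 proliferation genes. Without it 4 target genes were higher and 1 lower (26.3%, beside 18.9%) and the median was 0.73. Without animal 23 only TNFAIP3 passed (adjusted p = 0.0451, 5.26% beside 0.245%). TNFAIP3 is described above. IL6 had a log2 fold change of 3.78 (SE 0.565, adjusted p = 0.000792), with 0.293 to 34.1 CPM in A clones and 0 to 2.51 CPM in N clones. TNFAIP2 had a log2 fold change of 4.37 (SE 0.802, adjusted p = 0.00250), at 8.76 to 50.6 CPM in A clones and 0 to 24.3 CPM in N clones. Clones of animal 20 were highest in both groups for both genes. The chemokine gene CCL2 had a log2 fold change of 3.49 (adjusted p = 0.0307) and PTGS2, which encodes cyclooxygenase 2, one of 2.00 (0.0484), and both were named after their values were seen. Without A clone 20-106 the adjusted p was 0.00166 for IL6, 0.00187 for TNFAIP2, 0.0366 for CCL2 and 0.0850 for PTGS2. Without the animal block TNFAIP2 had a log2 fold change of 2.04 (adjusted p = 0.165) and CCL2 one of 2.14 (0.195). IL6 (0.0227) and PTGS2 (0.0345) kept their calls in that fit, where 3 target genes were higher and 1 lower (21.1%, beside 16.8%). TNFAIP8 was the lower gene, with a log2 fold change of -1.08 (SE 0.328, adjusted p = 0.0288), and its groups overlapped. Without N clones 22-5 and 22-9 it was -0.53 (adjusted p = 0.197). Several of these genes also respond to signals other than TNF. TNF had at most 5 counts in any clone, and the source of the differences in target genes was not tested.

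**Figure D5:**
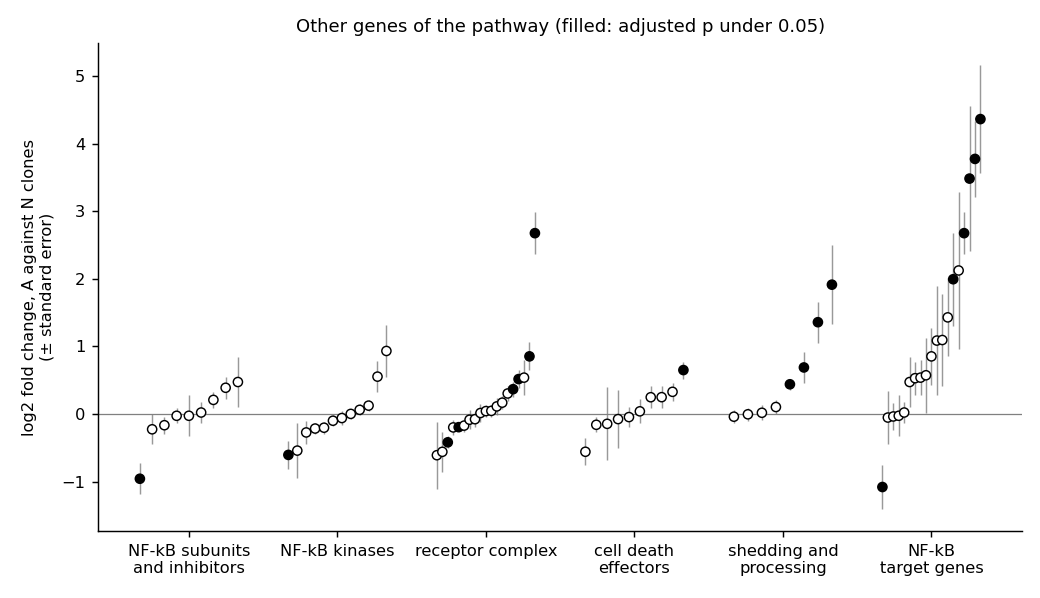
Log2 fold change of A against N clones (vertical axis, bars are 1 standard error) of the tested genes of 6 lists, in order of size within each list, with filled points at an adjusted p under 0.05. The first 4 lists lie mostly near 0, while the shedding and target gene lists reach higher values.

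In the RefSeq table of assembly ARS-UCD2.0, used for gene order only, all 47 genes were found by symbol. TNFSF18 and TNFSF4 lie near FASLG, with 1 gene between TNFSF18 and TNFSF4, and LTA, TNF and LTB lie next to each other. TNFRSF4 and TNFRSF18 are neighbours, as are CD70 and TNFSF9, and TNFSF8 and TNFSF15. Neighbours could differ in detection, as TNFSF9 was tested while CD70 had 0 counts, and TNFRSF4 was tested while TNFRSF18 had 1 count in all. Spans of TNFSF12 and TNFSF13 overlap a gene with 1 to 14 counts per clone, and that of TNFRSF17 overlaps GSPT1. Whether the counting used strand is not given in the sources used here, so counts in shared spans are uncertain.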

How the data were processed

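RNA from 20 undifferentiated MSC clones was sequenced with a strand-marking kit and 1 library per clone. The authors trimmed reads with Trimmomatic (0.36), mapped them with STAR (2.5.2b) to ARS-UCD1.2 and counted unique exonic reads with Subread (1.5.2). They deposited raw counts per gene, which are the only values used here, with no columns of other samples (0). The strand setting is not given in the sources used here, and no coordinates are printed. A row without a gene name held 0.113 to 0.333% of a clone's counts and was left out.

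Groups and animals came from the sample labels. Counts were fitted in R 4.3.3 with edgeR 4.0.16 (TMM, default expression filter, robust quasi-likelihood fit, F test, Benjamini-Hochberg adjustment over all genes tested), with condition as the tested term and animal as a block, as the study used a paired design. Thresholds were an adjusted p under 0.05 and a 2-fold change. The standard error is the log2 fold change divided by the root of F. Changes within an animal are differences of mean log2 CPM (prior count 2). Animals 22 and 23 were compared in a fit with condition as a block, and the interaction in a fit of both terms and their product. Clones were paired by animal, and the mean residuals of A clones and N clones from 1 animal, after their group means were removed, had correlations across genes of 0.253 (animal 17), 0.192 (20), 0.241 (22) and 0.44 (23). No libraries were duplicates, since the smallest chi-square per degree of freedom between any pair was 21.3. Scripts were tested on simulated data.

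Full statistics are given for genes with an adjusted p under 0.05 in any comparison, for those on the study's CD list (TNFSF4, CD40, TNFRSF1B and TNFRSF21) and for those with a clone apart from its group. Genes below the filter are named with counts where a clone had at least 10, and up to 4 genes with the smallest adjusted p under 0.05 are named per list. The genes and lists were chosen with earlier results of these data known. TNFSF18, NGFR and other genes outside this rule were named after their values were seen. Alternatives were no block, other normalizations (DESeq2 size factors, upper quartile), no filter or a minimum of 10 counts per clone, the Wald test of DESeq2 1.42.0, limma-voom (limma 3.58.1) with animal as a random effect, no robust dispersion, thinned counts, a test against a 2-fold change, and each animal or clone left out. The fit without N clones 22-5 and 22-9, and the list counts without A clone 20-106 or an animal, were chosen after seeing the data.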

Additional observations from a re-analysis of the deposited data

Results flagged for a closer look

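For each of the 24 tested genes, the highest or lowest clone of each group was compared with its neighbour on the log2 scale, and a gap above Dixon's critical value for 10 clones, as a share of the group's range, was taken as standing apart. Of 48 groups, 4 held such a clone, where chance gives about 2.4. FAS in N clones was highest in clone 22-17, at 105 CPM against 40.9 CPM in the next clone (gap 0.498). TNFRSF21 in A clones was lowest in clone 22-121, at 24.1 CPM against 52.2 CPM (gap 0.494). TNFRSF6B in A clones was highest in clone 17-57, at 162 CPM against 23.1 CPM (gap 0.479). TRAF6 in N clones was lowest in clone 20-15, at 13.7 CPM against 20.0 CPM (gap 0.618). Clones 17-57 and 20-15 are the only ones of their condition from their animals, so clone and animal cannot be told apart there.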

How the results depend on the processing

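The number of genes called between A and N clones was 6, and it lay between 4 and 8 over the fits that each left out 1 clone (15.3 to 24.1% of all genes), with 1 to 4 at least 2-fold. Without N clone 22-9 the only gene called at least 2-fold was TNFSF4. Without animal 23, 0 genes were called and 0 at least 2-fold, 5 had an unadjusted p under 0.05, and 0.245% of all genes were called. A test against a 2-fold change called 0, with 1 at an unadjusted p under 0.05, beside 0.426% of all genes. Without animal 22, 4 were called, 1 higher and 3 lower, as TNFSF4, TNFRSF1B and TNFRSF10D lost their calls and NGFR gained one (-2.17). Without the replicate block (16.8% of all genes), with upper-quartile normalization (20.3%) or without N clones 22-5 and 22-9 (14.2%) 5 were called, TNFRSF1A being the gene lost, and its call was also lost without animal 17 or 20. TNFSF4, TNFRSF12A, TNFRSF10D and TRAF4 were called in every fit without 1 clone, and TNFRSF1A in 6 and TNFRSF1B in 14 of the 20. The log2 fold change turned in sign, without passing the threshold, for FAS (-0.26), NGFR (0.14) and TNFSF18 (-0.011) without animal 23, and for TNFRSF6B without the block (0.21) or without animal 22 (0.10). TNFRSF8 turned (0.49) in limma-voom. TRAF5 turned in limma-voom (0.85), without N clones 22-5 and 22-9 (0.89) and without animal 22 (0.52), and lay between -0.39 and 0.25 over fits without 1 clone. DESeq2 called 7 genes (23.7% of all genes) between A and N clones, CD40 being added, 1 between animals 23 and 22 and 2 in the interaction, and the cause was not tested. It called 3.41% of all genes between the animals and 0.864% in the interaction. Leaving out single clones left the calls of these comparisons at 0 in edgeR. Fitted without the filter, TNFRSF9 passed (adjusted p = 0.0457) and TNFRSF1A and TNFRSF1B did not. Between 14 and 25 pathway genes were called over 4 alternatives (11.8 to 23.7% of all genes), against 18 (20.6%). Genes with few counts, such as TNF, are limited by depth.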
